A study of Homo sapiens with 21 samples.

Results

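The genes described here are 40 genes of glycolysis and of the cellular response to low oxygen, taken by symbol from the 28808 genes listed in the deposited tables. They fall into a glycolysis group of 22 genes (3 glucose transporters, 16 enzymes of the path from glucose to lactate and 3 regulators) and a hypoxia group of 18 genes, most of them targets of the transcription factor HIF-1. The members are found by symbol, but the list was chosen with earlier results of these data known.

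The study sequenced RNA of C3A cells, a clone of the human hepatoma line HepG2. Unexposed cells gave 6 libraries, and each of 5 exposures of 48 h gave 3. Glyphosate, a herbicide, was used at 5.6 µM (0.95 µg/mL). AMPA (aminomethylphosphonic acid), the breakdown product of glyphosate, was used at 34 µM (3.7 µg/mL). The herbicide 2,4-D, which mimics the plant hormone auxin, was used at 2.5 µM (0.56 µg/mL). A mixture of glyphosate with 2,4-D (glyphosate+2,4-D) and a mixture of AMPA with it (AMPA+2,4-D) kept these concentrations. All groups were the same wild-type hepatoma clone in low-glucose medium, so they model a tumour cell culture and not liver tissue, and nothing in the labels says that the replicates of a group were grown separately. P-values therefore measure the spread between these libraries, which may be technical.

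Glycolysis splits glucose into pyruvate in the cytosol and yields ATP without oxygen, and lactate dehydrogenase turns the pyruvate into lactate when it is not burned in mitochondria. HIF-1 is a pair of proteins whose alpha subunit, encoded by HIF1A, is hydroxylated by the oxygen-dependent EGLN enzymes and then destroyed through the VHL protein. When oxygen is low the alpha subunit persists and activates genes that carry the short sequence ACGTG or GCGTG, among them most glycolytic enzymes, VEGFA and CA9. HepG2-type cells are a common model of this response, since they still make EPO.

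Sequences ahead of the start sites are shown first, because that short core was searched for in them. RefSeq promoter windows (GRCh38.p14) were found for 36 of the 40 genes, and not for SLC2A3, VEGFA, BNIP3L and NDRG1. In the first window listed for each, 23 of 36 (63.9%) held ACGTG or GCGTG on either strand within the 250 bases before the start, against 43.1% of 27305 windows of all genes. ACGTG alone was in 15 (41.7%) against 18.7% of all, and GCGTG in 13 (36.1%) against 31.9%. The windows of all genes include genes not expressed here and were not matched for base content. The lines below give 30 bases round ACGTG for the 8 genes that hold it in any window and had the largest mean difference between exposed and unexposed cells, and for GPI, which holds it and changed little. Each reads 5′ to 3′ along its gene. Capitals mark ACGTG or its reverse complement CACGT, and CACGTG is both at once, overlapping on the 2 strands.
PFKFB3, chr10:6202813-6202842, plus strand: accctcctcccCACGTGgaagggggctggg
ANGPTL4, chr19:8363909-8363938, plus strand: ggaaagaagagtCACGTctcccacggttcg
CA9, chr9:35673898-35673927, plus strand: tcgtttccaatgCACGTacagcccgtacac
HK2, chr2:74835010-74835039, plus strand: tccggcgagagCACGTGgagagaatcgtgg
ENO2, chr12:6914450-6914479, plus strand: acccgcgctcgtACGTGcgcctccgccggc
ANKRD37, chr4:185396668-185396697, plus strand: gcgccgggctcCACGTGccagtgtttgtgt
P4HA1, chr10:73096935-73096964, minus strand: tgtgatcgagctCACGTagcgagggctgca
LDHA, chr11:18394465-18394494, plus strand: agcccgactcaCACGTGggttcccgCACGT
GPI, chr19:34364818-34364847, plus strand: acactgcctgtaACGTGgaaggtgttcgat

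The match lies 18 bases before the RefSeq start of its window in CA9, 86 in P4HA1 and LDHA, 107 in PFKFB3 and 234 in ANGPTL4. These are not the outermost starts: each printed stretch lies inside the gene span in the deposited tables, which holds other starts further upstream. HK2 is shown in full because its second window holds the core 6 times in 250 bases (chr2:74834920-74835169, plus strand), with capitals for both ACGTG and GCGTG.
HK2: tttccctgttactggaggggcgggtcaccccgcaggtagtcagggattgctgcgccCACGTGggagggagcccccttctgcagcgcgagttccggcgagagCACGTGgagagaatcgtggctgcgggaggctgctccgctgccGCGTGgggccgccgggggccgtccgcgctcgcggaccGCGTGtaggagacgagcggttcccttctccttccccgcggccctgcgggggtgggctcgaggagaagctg
In that window CACGTG stands at 2 places, which count as 4 of the matches, and GCGTG at 2 more. Among 30 genes that limma called higher in all 5 exposures, 26 had a window and 19 of these held a match in the first one. The other 7 tested genes had a match in 3 of 7 first windows. EGLN3, MXI1, P4HA2, PDK1, PGAM1, PKM and TPI1 were called in every exposure and had no match in the first window. Of these, MXI1, PDK1 and TPI1 held matches in later windows. GPI, PFKL and HIF1A, which were not called in every exposure, had a match in the first. A match is a string of letters and says nothing of binding in these cells.

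Expression is given as FPKM (fragments scaled by gene length and by 1 factor per library), which allows levels to be set side by side between genes. A difference is one of log2(FPKM + 1), which understates the change of low genes. A gene was called where its adjusted p in limma, over the 13405 genes with at least 1 FPKM in at least 3 libraries, was under 0.05. Of the 40 genes 37 were tested. HK1, PFKM and CA12 were too low, at 0.0261 to 0.0902, 0.309 to 0.596 and 0 to 0.083 FPKM. The 37 were at or above 1.05 FPKM in each of the 21 libraries, so none entered the test through exposed cells alone.

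Libraries held 15.2 to 24.35 M reads. The unexposed libraries formed 2 sets, replicates 1 to 3 and replicates 4 to 6, which differed from each other across the whole table, so both are shown throughout. The labels name no batch for them. Ribosomal protein genes took 7.16 to 7.36% of all FPKM in replicates 1 to 3, 8.14 to 8.37% in replicates 4 to 6 and 9.14 to 10.2% after exposure, and their part in the results below was not tested. All 11 hepatocyte markers looked at were expressed, and their summed level was 7552 to 7933 FPKM in unexposed replicates 1 to 3, 10028 to 11223 in replicates 4 to 6 and 11205 to 13117 after exposure. Leukocyte and endothelial markers stayed at or below 0.33 and 0.11 FPKM each. Of 4 cholangiocyte markers 3 were expressed (EPCAM 78.2 to 97.7, KRT19 18.7 to 33.3 and SOX9 27.9 to 41.1 FPKM), with sums of 145 to 149, 136 to 145 and 148 to 159.7 FPKM in the 2 unexposed sets and after exposure, and KRT7 was at or below 0.0356. Of 4 fibroblast and stellate markers the collagen genes COL1A1 and COL3A1 were near 0, but ACTA2 measured 14.7 to 16.3 FPKM in replicates 1 to 3, 19.8 to 21.6 in replicates 4 to 6 and 11.3 to 14.7 after exposure. The part of these markers in the results was not tested. In such bulk cultures fewer cells of a kind and less RNA per cell cannot be told apart.

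**Figure D1:**
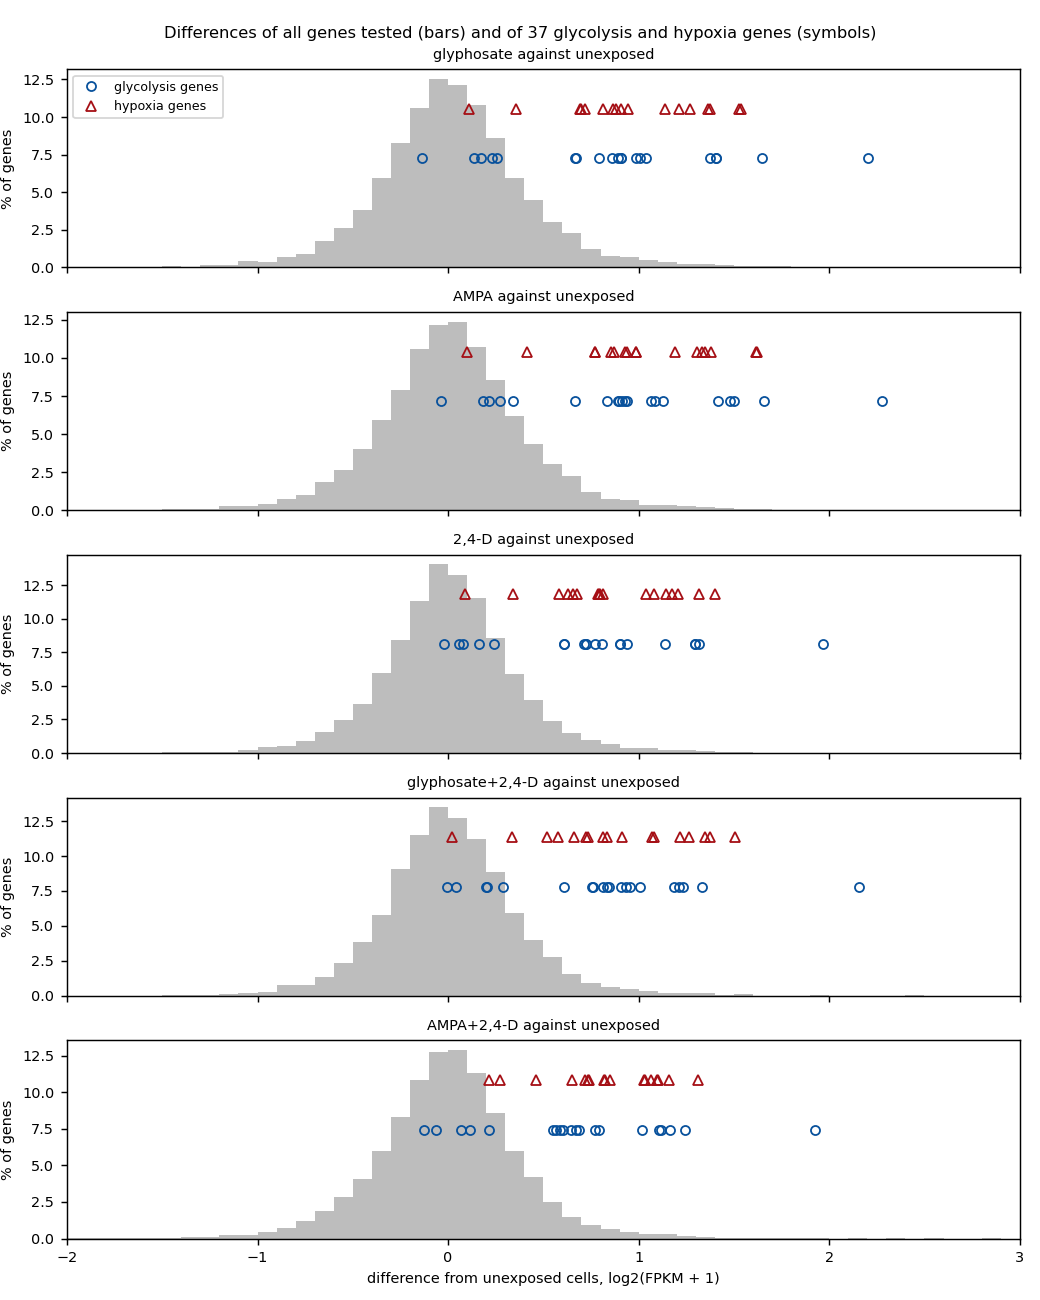
Differences from unexposed cells in log2(FPKM + 1) on the horizontal axis, 1 panel per exposure, with grey bars for the percentage of all 13405 genes tested in steps of 0.1, blue circles for 20 glycolysis genes and red triangles for 17 hypoxia genes (their height has no meaning). The grey bars centre on 0, while the circles and triangles together have medians of 0.74 to 0.94.

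Both groups of genes were higher in all 5 exposures. Against unexposed cells limma called 34 of 37 genes higher with glyphosate, where 27.7% of all genes tested were called higher. The numbers were 34 with AMPA (28% of all genes), 32 with 2,4-D (25%), 33 with glyphosate+2,4-D (25.4%) and 30 with AMPA+2,4-D (26%). No gene of the 37 was called lower, where 25.1, 24.8, 22.6, 22.7 and 24.4% of all genes were, in the same order. The median difference of the 37 was 0.91 with glyphosate, 0.94 with AMPA, 0.79 with 2,4-D, 0.83 with glyphosate+2,4-D and 0.74 with AMPA+2,4-D, while the median of all genes tested lay between 0.00 and 0.01. These 5 comparisons share the same 6 unexposed libraries and are not independent of each other. Whether the compounds or another difference between exposed and unexposed cultures set these levels was not tested.

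The glycolysis and hypoxia groups gave like counts. Of 20 glycolysis genes 18, 18, 16, 17 and 15 were called higher in the order just given, and of 17 hypoxia genes 16, 16, 16, 16 and 15. In 30 of the 37 genes each of the 15 exposed libraries lay above each of the 6 unexposed ones, as in 13.8% of all genes. The exceptions were SLC2A1, SLC2A2, GPI, PFKL and PFKP among the glycolysis genes, and HIF1A and EPO among the hypoxia genes.

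**Figure D2:**
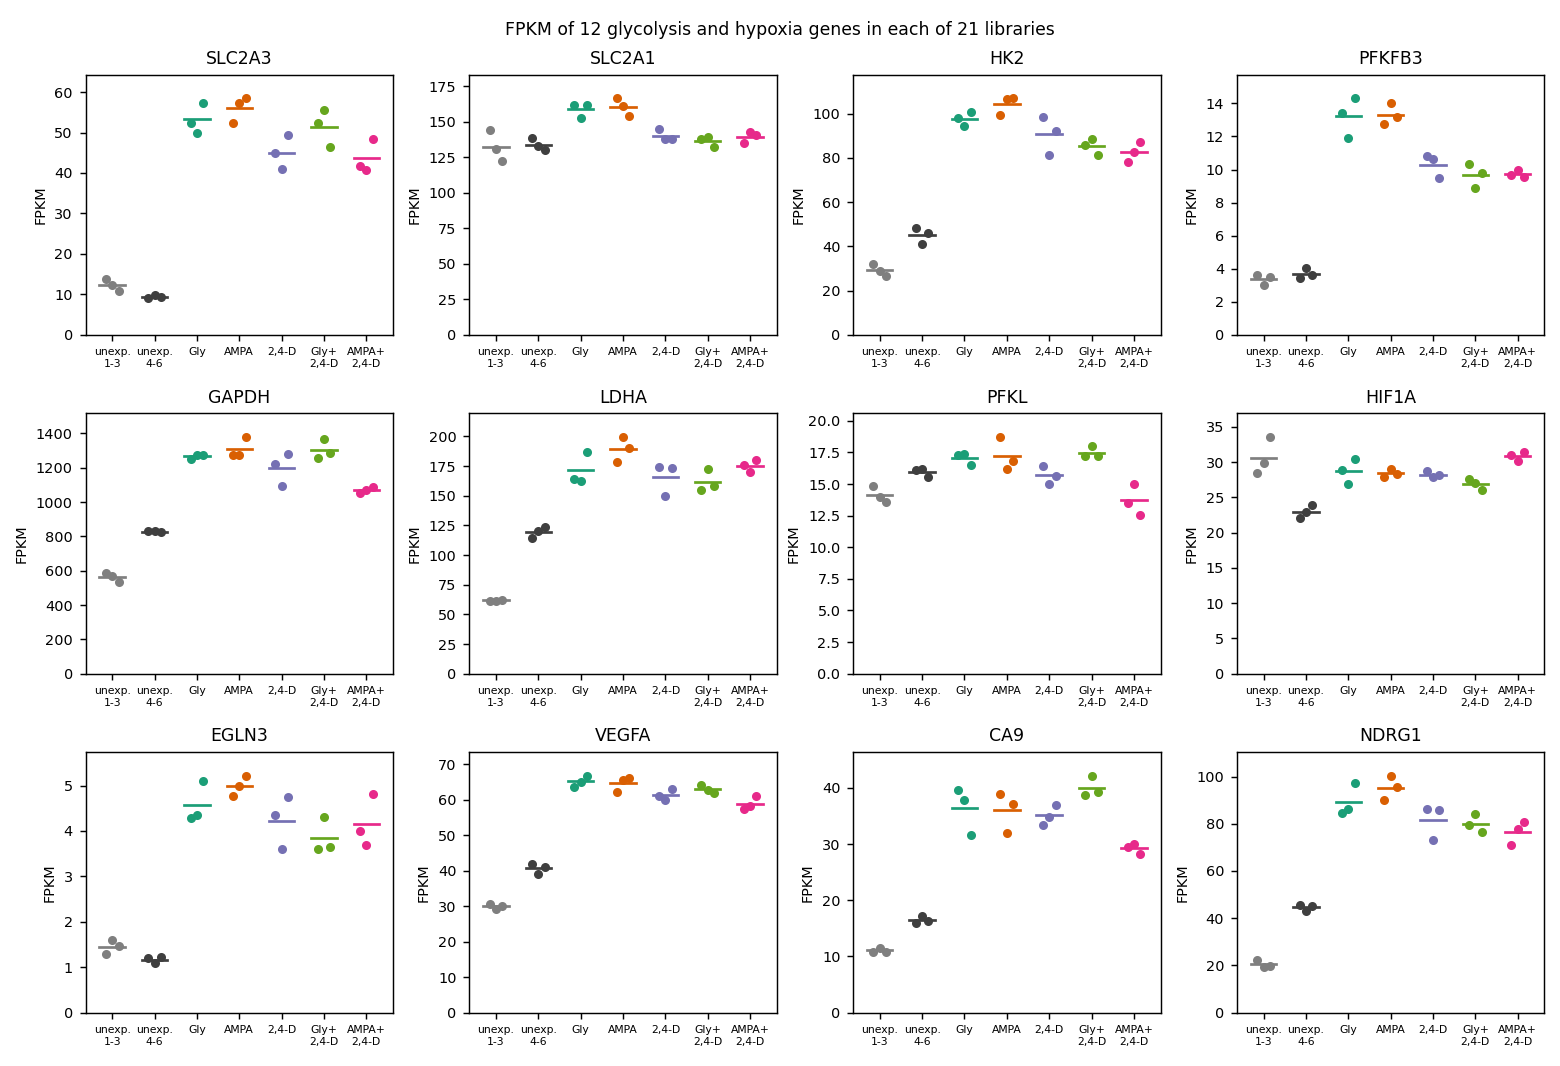
FPKM of 12 of the genes in each library, with 1 point per library, a line at each group's mean and each vertical axis starting at 0. SLC2A3, HK2, PFKFB3, GAPDH, LDHA, EGLN3, VEGFA, CA9 and NDRG1 have every exposed point above every unexposed one, while SLC2A1, PFKL and HIF1A overlap.

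The 3 glucose transporters behaved differently. SLC2A3 (chr12:7919230-7936275) encodes GLUT3, a transporter of high glucose affinity best known from neurons. It measured 13.7, 12.3 and 10.9 FPKM in unexposed replicates 1 to 3 and 9.17, 9.82 and 9.23 in replicates 4 to 6. The single exposures gave 52.5, 49.99 and 57.3 FPKM with glyphosate, 52.3, 57.2 and 58.5 with AMPA and 44.8, 40.99 and 49.3 with 2,4-D. Mixtures gave 52.3, 55.5 and 46.5 FPKM with glyphosate+2,4-D and 41.7, 40.9 and 48.5 with AMPA+2,4-D. Every exposed library exceeded every unexposed one. The mean was 4.02 to 5.16 times that of unexposed cells, and the difference of 1.92 to 2.28 (SE 0.10) was the largest of the 37 genes in all 5 comparisons (limma, adjusted p = 3.65e-11 to 3.82e-10).

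SLC2A1 (chr1:42925375-42959176) encodes GLUT1, the transporter classically raised by HIF-1, and was far more abundant. Unexposed cells held 144, 131 and 122 FPKM in unexposed replicates 1 to 3 and 139, 133 and 129.8 in replicates 4 to 6. Exposed cells held 162, 153 and 162 FPKM with glyphosate, 167, 161 and 154 with AMPA and 145, 138 and 138 with 2,4-D. The mixtures held 138, 139.6 and 132 FPKM with glyphosate+2,4-D and 135, 143 and 141 with AMPA+2,4-D. Libraries with glyphosate or AMPA alone lay above all unexposed ones, and those with 2,4-D, alone or mixed, overlapped them. Limma called SLC2A1 higher with glyphosate (0.26, adjusted p = 0.000101) and with AMPA (0.27, adjusted p = 5.23e-05) and not with the others (0.04 to 0.08). With values rescaled to TPM the AMPA call was lost (0.11, adjusted p = 0.107).

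SLC2A2 encodes GLUT2, the low-affinity transporter of normal hepatocytes. Its level was 3.55, 3.23 and 3.62 FPKM in unexposed replicates 1 to 3 and 5.27, 6.59 and 6.32 in replicates 4 to 6. Cells exposed to 1 compound had 3.63, 4.04 and 4.70 FPKM with glyphosate, 4.69, 4.52 and 4.16 with AMPA and 3.86, 4.76 and 4.99 with 2,4-D. Those exposed to a mixture had 4.20, 4.40 and 5.17 FPKM with glyphosate+2,4-D and 5.80, 4.75 and 6.00 with AMPA+2,4-D. The exposed libraries lay between the 2 unexposed sets or within the second. No exposure was called (-0.14 to 0.21, SE 0.16).

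Of 14 enzymes tested, 13 were called higher with glyphosate, 13 with AMPA, 12 with 2,4-D, 13 with glyphosate+2,4-D and 11 with AMPA+2,4-D, and 11 were called in all 5. HK2 (chr2:74833981-74893359), a hexokinase that traps glucose as glucose 6-phosphate in tumour cells, had the largest mean difference among the enzymes, 1.32 over the 5 exposures, close to the 1.30 of ENO2. HK2 measured 32.2, 28.8 and 26.8 FPKM in unexposed replicates 1 to 3 and 48.3, 41.1 and 45.8 in replicates 4 to 6. With 1 compound it measured 98.2, 94.2 and 101 FPKM with glyphosate, 99.4, 107 and 107 with AMPA and 98.5, 81.3 and 92.2 with 2,4-D. With a mixture it measured 85.95, 88.7 and 81.5 FPKM with glyphosate+2,4-D and 78.3, 82.6 and 87.04 with AMPA+2,4-D. No exposed library came below 78.3 and no unexposed one above 48.3. The difference was 1.17 to 1.499 (SE 0.14; limma, adjusted p = 1.12e-07 to 2.79e-06).

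The next steps moved little. GPI, which turns glucose 6-phosphate into fructose 6-phosphate, rose by 0.23 to 0.34 in 4 exposures and was not called with AMPA+2,4-D (0.12). Levels of GPI were 15.9, 16.1 and 14.01 FPKM in unexposed replicates 1 to 3 and 19.7, 19.5 and 20.2 in replicates 4 to 6. Single compounds gave GPI levels of 19.7, 20.5 and 21.6 FPKM with glyphosate, 23.5, 21.9 and 21.5 with AMPA and 20.9, 20.02 and 21.5 with 2,4-D. The mixtures gave GPI levels of 20.8, 22.4 and 21.1 FPKM with glyphosate+2,4-D and 19.7, 18.5 and 18.7 with AMPA+2,4-D. Its exposed libraries overlapped replicates 4 to 6, and without replicates 1 to 3 only the AMPA call held (0.16). On the TPM scale none of the 4 calls of GPI held (0.14 to 0.19; limma, adjusted p = 0.0656 to 0.186). Leaving out 1 library also ended the GPI calls with glyphosate (its replicate 2 or 3, or unexposed replicate 1 or 2), with 2,4-D (its replicate 1 or 3, or unexposed replicate 1) and with glyphosate+2,4-D (its replicate 2).

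Phosphofructokinase commits the sugar to glycolysis. PFKL, the liver form, was the most abundant of the 3 genes for it. Counted per length, PFKL stood at 14.9, 14.01 and 13.6 FPKM in unexposed replicates 1 to 3 and 16.1, 16.2 and 15.6 in replicates 4 to 6. After single exposures PFKL stood at 17.3, 17.3 and 16.5 FPKM with glyphosate, 18.7, 16.2 and 16.8 with AMPA and 16.4, 15.03 and 15.6 with 2,4-D. After mixtures PFKL stood at 17.2, 17.99 and 17.2 FPKM with glyphosate+2,4-D and 13.5, 15.02 and 12.6 with AMPA+2,4-D. It was called higher with glyphosate, AMPA and glyphosate+2,4-D (0.17, 0.18 and 0.20), not with 2,4-D (0.06), and lay lower, without a call, with AMPA+2,4-D (-0.13, adjusted p = 0.0849 in limma). Without unexposed replicates 1 to 3 none of the 3 calls held (0.09 to 0.12), and the AMPA+2,4-D value was then called lower (-0.21). The glyphosate call was lost without its replicate 1 or 2, and the AMPA call without AMPA replicate 1. On the TPM scale none of the 3 calls held either (0.03 to 0.08) and the fall with AMPA+2,4-D was called (-0.25, adjusted p = 0.00325).

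PFKP, the platelet form, measured 2.79, 2.61 and 2.80 FPKM in unexposed replicates 1 to 3 but 1.49, 1.43 and 1.33 in replicates 4 to 6. Single compounds gave PFKP levels of 2.31, 2.38 and 2.20 FPKM with glyphosate, 2.55, 2.29 and 2.62 with AMPA and 2.40, 2.23 and 2.45 with 2,4-D. Mixtures gave PFKP levels of 2.15, 2.61 and 2.61 FPKM with glyphosate+2,4-D and 1.58, 2.11 and 1.97 with AMPA+2,4-D. All 15 exposed libraries lay above the second unexposed set and none above the highest of the first. No exposure was called against both sets together (-0.06 to 0.21).

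From aldolase to lactate dehydrogenase every enzyme tested was called higher in each exposure. Aldolase cleaves the doubly phosphorylated sugar, and ALDOC rose by 0.57 to 0.93 (SE 0.13), from 6.22 to 10.3 FPKM in unexposed libraries to 11.6 to 17.2 in exposed ones. ALDOA rose by 0.55 to 0.91 (SE 0.10), but its level of 1.60 to 5.02 FPKM was the lowest of the 10 enzymes from aldolase onward. A gene on the same strand, AC093512.2, covers 42.3% of the exon length of ALDOA, and how the authors' counting treated such reads is not given in the sources used here. TPI1, which interconverts the triose phosphates, rose by 0.68 to 1.08 (SE 0.12), from 92.5 to 139 FPKM to 177 to 251.

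GAPDH (chr12:6533927-6538374), the oxidising step and a widely used reference gene, was the most abundant of the 40. GAPDH read 584, 569.5 and 536 FPKM in unexposed replicates 1 to 3 and 829.8, 829 and 825 in replicates 4 to 6. With single compounds it read 1253, 1274 and 1274 FPKM with glyphosate, 1275, 1272 and 1379 with AMPA and 1224, 1091 and 1282 with 2,4-D. With mixtures GAPDH read 1255, 1368 and 1288 FPKM with glyphosate+2,4-D and 1053, 1071 and 1086 with AMPA+2,4-D. Unexposed libraries ended at 829.8 and exposed ones began at 1053. The difference was 0.65 to 0.94 (SE 0.12; limma, adjusted p = 5.74e-06 to 0.000311). An antisense gene, AC006064.4, overlaps 14.2% of its exon length and itself read 31.8 to 193 FPKM, and without strand their reads cannot be told apart.

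PGK1, which makes the first ATP of the path, followed. PGK1 levels were 54.3, 54.3 and 50.5 FPKM in unexposed replicates 1 to 3 and 70.6, 68.4 and 72.5 in replicates 4 to 6. They became 122, 123 and 135 FPKM with glyphosate, 125, 131 and 130.1 with AMPA and 117, 103 and 126 with 2,4-D. Under the mixtures they were 113, 127 and 118 FPKM with glyphosate+2,4-D and 99.3, 108 and 109 with AMPA+2,4-D. All exposed libraries were above all unexposed ones, with a difference of 0.77 to 1.06 (SE 0.10; limma, adjusted p = 1.20e-07 to 6.26e-06). PGAM1, the phosphoglycerate mutase, rose by 0.59 to 0.67 (SE 0.08), from 84.1 to 109.8 FPKM to 137 to 166.

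Enolase had 2 isozymes in the set. ENO1, the ubiquitous form, rose by 0.67 to 0.91 (SE 0.11), from 379.6 to 551 FPKM to 683 to 869. ENO2, the neuron-type form and a HIF-1 target, was lower in level and rose by more. ENO2 measured 14.1, 14.1 and 13.4 FPKM in unexposed replicates 1 to 3 and 19.2, 17.5 and 18.9 in replicates 4 to 6. Single exposures gave ENO2 40.5, 43.1 and 46.4 FPKM with glyphosate, 41.01, 45.9 and 46.6 with AMPA and 42.3, 37.8 and 42.6 with 2,4-D. After mixtures ENO2 measured 39.8, 42.3 and 43.9 FPKM with glyphosate+2,4-D and 33.3, 36.9 and 36.95 with AMPA+2,4-D. The exposed libraries began at 33.3 and the unexposed ones ended at 19.2, a difference of 1.11 to 1.41 (SE 0.10; limma, adjusted p = 2.68e-09 to 7.93e-08). PKM, the pyruvate kinase of tumour and muscle cells, rose by 0.60 to 0.90 (SE 0.07), from 54.1 to 66.8 FPKM to 90.0 to 116.

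LDHA (chr11:18394388-18408425) makes lactate from pyruvate. LDHA held 61.6, 61.3 and 62.2 FPKM in unexposed replicates 1 to 3 and 115, 119.9 and 124 in replicates 4 to 6. After single exposures LDHA held 164, 163 and 187 FPKM with glyphosate, 179, 199 and 190.0 with AMPA and 175, 149.6 and 174 with 2,4-D. After mixtures LDHA held 155, 172 and 159 FPKM with glyphosate+2,4-D and 176, 170.2 and 179.7 with AMPA+2,4-D. The second unexposed set stood between the first and the exposed libraries, with no overlap on either side. The difference was 0.91 to 1.13 (SE 0.20; limma, adjusted p = 0.000134 to 0.00119) against all 6, 1.38 to 1.60 against replicates 1 to 3 and 0.44 to 0.66 against replicates 4 to 6, and all 5 exposures were called in each case.

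The 3 regulators were called in every exposure. PFKFB3 (chr10:6144934-6254644) makes fructose 2,6-bisphosphate, the activator of phosphofructokinase. PFKFB3 showed 3.62, 3.04 and 3.52 FPKM in unexposed replicates 1 to 3 and 3.45, 4.04 and 3.60 in replicates 4 to 6. Cells exposed to single compounds showed PFKFB3 at 13.4, 11.9 and 14.3 FPKM with glyphosate, 12.7, 14.02 and 13.2 with AMPA and 10.8, 10.6 and 9.46 with 2,4-D. With mixtures PFKFB3 reached 10.3, 8.87 and 9.81 FPKM with glyphosate+2,4-D and 9.66, 9.99 and 9.53 with AMPA+2,4-D. The unexposed sets were not called different (0.10, adjusted p = 0.351 in limma), and the exposed libraries began at 8.87 where the unexposed ones ended at 4.04. The difference was 1.23 to 1.66 (SE 0.07; limma, adjusted p = 5.94e-12 to 3.54e-10). PFKFB4, a related enzyme, rose by 1.12 to 1.48 (SE 0.11), from 3.60 to 5.71 FPKM to 10.6 to 15.9.

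PDK1, the kinase that shuts off pyruvate dehydrogenase and so keeps pyruvate out of mitochondria, changed less. PDK1 measured 3.28, 3.18 and 2.92 FPKM in unexposed replicates 1 to 3 and 4.07, 4.07 and 4.59 in replicates 4 to 6. After single exposures it measured 7.43, 7.31 and 8.42 FPKM with glyphosate, 7.15, 8.01 and 7.77 with AMPA and 6.77, 6.65 and 7.43 with 2,4-D. After mixtures it measured 6.85, 7.11 and 7.53 FPKM with glyphosate+2,4-D and 7.27, 6.36 and 7.60 with AMPA+2,4-D. Exposed and unexposed libraries did not overlap, with a difference of 0.77 to 0.91 (SE 0.09; limma, adjusted p = 2.78e-07 to 2.47e-06).

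**Figure D3:**
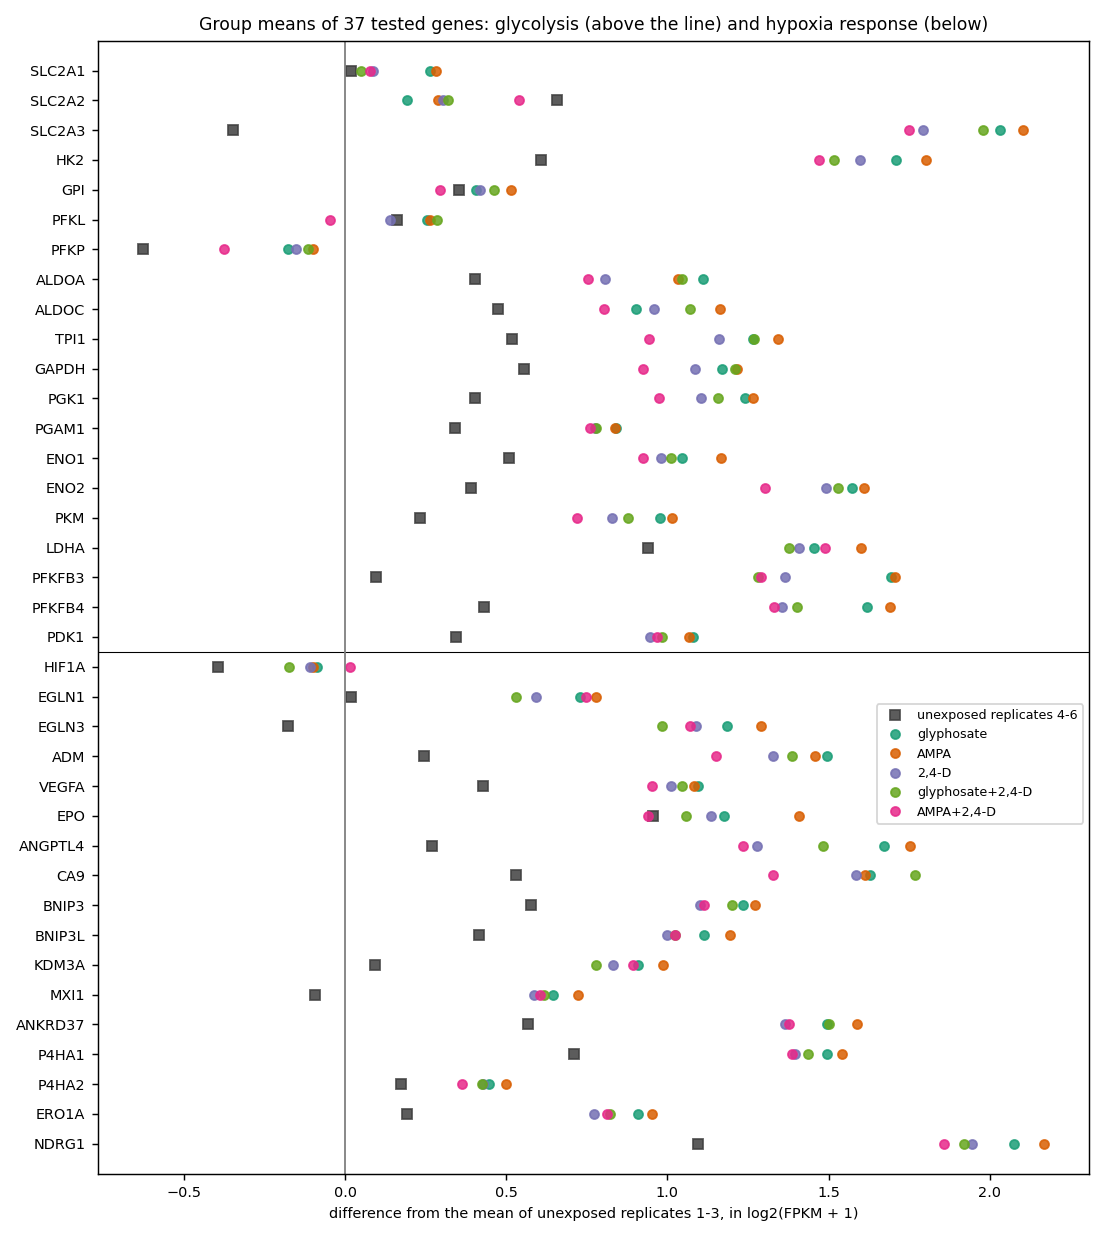
Group means of the 37 genes as differences from the mean of unexposed replicates 1 to 3 in log2(FPKM + 1), with glycolysis genes above the line, hypoxia genes below, dark squares for unexposed replicates 4 to 6 and coloured circles for the exposures. The square lies at 1.09 for NDRG1, 0.96 for EPO and 0.94 for LDHA but at 0.10 for PFKFB3, whose circles lie at 1.28 to 1.71.

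Among the hypoxia genes those of oxygen sensing are given first. HIF1A (chr14:61695513-61748259) encodes the regulated subunit, whose control is mainly at the protein. Its mRNA measured 28.4, 29.8 and 33.5 FPKM in unexposed replicates 1 to 3 and 22.1, 22.9 and 23.9 in replicates 4 to 6. Single exposures left it at 28.8, 26.9 and 30.4 FPKM with glyphosate, 27.8, 29.01 and 28.3 with AMPA and 28.7, 27.9 and 28.1 with 2,4-D. Mixtures left it at 27.6, 27.01 and 26.1 FPKM with glyphosate+2,4-D and 30.98, 30.1 and 31.5 with AMPA+2,4-D. Exposed libraries overlapped the first unexposed set and lay above the second. No exposure was called against all 6 (0.02 to 0.21, SE 0.09; limma, adjusted p = 0.0650 to 0.863). Against replicates 4 to 6 alone all 5 were called higher (0.22 to 0.41), and against replicates 1 to 3 alone glyphosate+2,4-D was called lower (-0.18). Leaving out unexposed replicate 2 or 3 gave a call higher with AMPA+2,4-D (0.25 and 0.28).

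EGLN3 (chr14:33924231-34462774), an oxygen-dependent HIF hydroxylase that is itself a HIF target, was low in unexposed cells. EGLN3 measured 1.29, 1.60 and 1.47 FPKM in unexposed replicates 1 to 3 and 1.20, 1.08 and 1.22 in replicates 4 to 6. Single compounds gave EGLN3 levels of 4.29, 4.35 and 5.09 FPKM with glyphosate, 4.78, 5.00 and 5.21 with AMPA and 4.35, 3.59 and 4.75 with 2,4-D. Mixtures gave EGLN3 levels of 3.60, 4.31 and 3.64 FPKM with glyphosate+2,4-D and 3.99, 3.69 and 4.81 with AMPA+2,4-D. Exposed libraries began at 3.59 and unexposed ones ended at 1.60, and the difference was 1.07 to 1.38 (SE 0.09; limma, adjusted p = 7.09e-10 to 2.52e-08). EGLN1, the main hydroxylase in most cells, rose by 0.52 to 0.77 (SE 0.05), from 9.97 to 10.7 FPKM to 14.6 to 20.4.

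Genes for secreted proteins followed. VEGFA (chr6:43770184-43786487), the growth factor of blood vessels, showed small spread within groups. VEGFA measured 30.7, 29.2 and 29.9 FPKM in unexposed replicates 1 to 3 and 41.8, 39.2 and 40.97 in replicates 4 to 6. With 1 compound VEGFA measured 63.7, 65.1 and 66.7 FPKM with glyphosate, 62.1, 65.7 and 66.1 with AMPA and 61.2, 59.9 and 63.2 with 2,4-D. With a mixture VEGFA measured 64.2, 62.7 and 61.8 FPKM with glyphosate+2,4-D and 57.3, 58.3 and 61.2 with AMPA+2,4-D. All exposed libraries were above all unexposed ones, with a difference of 0.74 to 0.88 (SE 0.09; limma, adjusted p = 5.26e-07 to 5.06e-06).

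ANGPTL4, an inhibitor of lipoprotein lipase, had the largest mean difference of the 4 secreted genes. ANGPTL4 measured 2.07, 1.94 and 1.81 FPKM in unexposed replicates 1 to 3 and 2.67, 2.67 and 2.31 in replicates 4 to 6. Single compounds gave ANGPTL4 7.34, 8.48 and 9.41 FPKM with glyphosate, 8.04, 9.84 and 8.89 with AMPA and 6.26, 5.87 and 6.25 with 2,4-D. Mixtures gave ANGPTL4 7.21, 7.33 and 7.12 FPKM with glyphosate+2,4-D and 4.66, 6.54 and 6.75 with AMPA+2,4-D. Its difference was 1.099 to 1.62 (SE 0.10; limma, adjusted p = 9.46e-10 to 1.42e-07), highest with AMPA and lowest with AMPA+2,4-D. ADM, the vasodilator adrenomedullin, went from 4.99 to 6.92 FPKM to 12.9 to 17.3.

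EPO, the hormone of red cell production, was the least certain. EPO measured 1.79, 1.05 and 1.71 FPKM in unexposed replicates 1 to 3 and 3.79, 3.55 and 4.19 in replicates 4 to 6. Exposed cells gave EPO at 4.10, 3.89 and 6.14 FPKM with glyphosate, 5.70, 6.28 and 4.92 with AMPA and 4.84, 4.16 and 4.45 with 2,4-D. Mixtures gave EPO at 4.41, 3.67 and 4.51 FPKM with glyphosate+2,4-D and 3.67, 3.80 and 3.88 with AMPA+2,4-D. The sets of unexposed libraries did not overlap, and the exposed libraries overlapped the second. Limma called EPO higher in 4 exposures (0.58 to 0.93, SE 0.23) and not with AMPA+2,4-D (0.46, adjusted p = 0.0970). Without unexposed replicates 1 to 3 only the AMPA call held, and EPO rested on 26 to 146 reads per library. Its call with glyphosate+2,4-D was lost without any 1 of that group's libraries or of unexposed replicates 1 to 3, that with glyphosate without its replicate 3, and that with 2,4-D without its replicate 1 or 3, while AMPA+2,4-D was called without unexposed replicate 4 or 6.

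CA9 (chr9:35673856-35681159), the carbonic anhydrase of the cell surface that helps export acid, is a standard marker of HIF activity. CA9 measured 10.8, 11.5 and 10.8 FPKM in unexposed replicates 1 to 3 and 15.9, 17.1 and 16.2 in replicates 4 to 6. Single exposures gave CA9 levels of 39.7, 37.9 and 31.7 FPKM with glyphosate, 38.9, 31.9 and 37.2 with AMPA and 33.5, 34.9 and 37.04 with 2,4-D. Mixtures gave CA9 levels of 38.8, 42.1 and 39.3 FPKM with glyphosate+2,4-D and 29.5, 29.98 and 28.3 with AMPA+2,4-D. Exposed libraries began at 28.3 and unexposed ones ended at 17.1. The difference was 1.06 to 1.504 (SE 0.13; limma, adjusted p = 4.91e-08 to 2.47e-06). ARHGEF39 on the opposite strand covers 38.5% of the CA9 exon length but read at most 1.095 FPKM.

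BNIP3 and BNIP3L mark mitochondria for removal. BNIP3 measured 49.2, 48.7 and 50.3 FPKM in unexposed replicates 1 to 3 and 70.1, 76.6 and 75.7 in replicates 4 to 6. Single compounds gave BNIP3 118, 113 and 122 FPKM with glyphosate, 114, 125 and 123 with AMPA and 108, 100.3 and 114 with 2,4-D. Mixtures gave BNIP3 109, 121 and 115 FPKM with glyphosate+2,4-D and 109, 107 and 109 with AMPA+2,4-D. Groups did not overlap, and BNIP3 rose by 0.81 to 0.98 (SE 0.13; limma, adjusted p = 4.32e-06 to 4.53e-05). BNIP3L measured 16.9, 15.9 and 15.1 FPKM in unexposed replicates 1 to 3 and 21.5, 21.7 and 21.6 in replicates 4 to 6. Single compounds gave BNIP3L 35.6, 34.1 and 37.2 FPKM with glyphosate, 35.7, 40.1 and 37.5 with AMPA and 32.6, 31.2 and 34.8 with 2,4-D. Mixtures gave BNIP3L 33.4, 35.03 and 31.8 FPKM with glyphosate+2,4-D and 33.3, 31.9 and 35.1 with AMPA+2,4-D. It was apart in the same way, with a difference of 0.79 to 0.99 (SE 0.10; limma, adjusted p = 2.08e-07 to 3.89e-06).

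Nuclear targets were next. ANKRD37 encodes a small ankyrin repeat protein. ANKRD37 measured 1.56, 1.97 and 1.58 FPKM in unexposed replicates 1 to 3 and 3.10, 2.70 and 3.20 in replicates 4 to 6. Single exposures gave ANKRD37 6.64, 6.12 and 7.11 FPKM with glyphosate, 6.80, 7.27 and 7.30 with AMPA and 5.47, 5.67 and 6.76 with 2,4-D. Mixtures gave ANKRD37 6.35, 7.47 and 6.15 FPKM with glyphosate+2,4-D and 5.79, 6.11 and 6.15 with AMPA+2,4-D. Exposed libraries began at 5.47 and unexposed ones ended at 3.20, a difference of 1.08 to 1.31 (SE 0.14; limma, adjusted p = 3.65e-07 to 4.66e-06). UFSP2 on the opposite strand covers 35.2% of its exon length and read 5.97 to 8.43 FPKM.

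MXI1, an antagonist of MYC, changed least of the 3 nuclear genes. MXI1 measured 5.73, 5.62 and 5.34 FPKM in unexposed replicates 1 to 3 and 5.60, 4.56 and 5.34 in replicates 4 to 6. Single exposures gave MXI1 9.12, 9.46 and 9.23 FPKM with glyphosate, 10.5, 9.15 and 9.87 with AMPA and 9.14, 8.33 and 9.07 with 2,4-D. Mixtures gave MXI1 9.31, 9.03 and 8.85 FPKM with glyphosate+2,4-D and 9.12, 9.07 and 8.75 with AMPA+2,4-D. The unexposed sets overlapped each other and no exposed library reached down to them, with a difference of 0.63 to 0.77 (SE 0.05; limma, adjusted p = 2.47e-09 to 4.50e-08). KDM3A, a histone demethylase, went from 6.83 to 8.14 FPKM to 12.6 to 16.4.

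The last group of 3 genes serves protein folding in the secretory path. P4HA1 encodes a collagen prolyl hydroxylase subunit. P4HA1 measured 47.2, 48.95 and 46.4 FPKM in unexposed replicates 1 to 3 and 76.7, 75.3 and 83.00 in replicates 4 to 6. Single exposures gave P4HA1 137, 130.4 and 140.1 FPKM with glyphosate, 136, 143 and 142 with AMPA and 129.6, 114 and 137 with 2,4-D. Mixtures gave P4HA1 129, 139.9 and 122 FPKM with glyphosate+2,4-D and 124, 117 and 137 with AMPA+2,4-D. Its difference was 1.03 to 1.19 (SE 0.16; limma, adjusted p = 5.88e-06 to 3.41e-05), with no overlap between exposed and unexposed libraries. P4HA2, its paralogue, measured 8.68, 8.66 and 8.64 FPKM in unexposed replicates 1 to 3 and 9.88, 9.81 and 10.00 in replicates 4 to 6. Single exposures gave P4HA2 11.9, 12.3 and 12.3 FPKM with glyphosate, 12.8, 12.1 and 13.03 with AMPA and 12.4, 11.4 and 12.2 with 2,4-D. Mixtures gave P4HA2 11.2, 12.5 and 12.1 FPKM with glyphosate+2,4-D and 11.3, 10.7 and 12.3 with AMPA+2,4-D. P4HA2 was apart as well but rose by only 0.27 to 0.41 (SE 0.05; limma, adjusted p = 5.59e-06 to 0.000420), the smallest change of the hypoxia genes called in all 5 exposures. ERO1A, the oxidase that forms disulfide bonds, rose by 0.68 to 0.86 (SE 0.09), from 28.6 to 34.7 FPKM to 46.9 to 60.7.

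NDRG1 (chr8:133237171-133302022), a stress-responsive gene long used as a hypoxia marker, had the largest difference between the unexposed sets in log2(FPKM + 1) of the 37 genes. NDRG1 measured 22.2, 19.5 and 19.6 FPKM in unexposed replicates 1 to 3 and 45.6, 43.2 and 45.3 in replicates 4 to 6. Single exposures gave NDRG1 84.6, 86.1 and 97.1 FPKM with glyphosate, 90.2, 100.3 and 95.6 with AMPA and 86.2, 73.01 and 85.8 with 2,4-D. Mixtures gave NDRG1 79.7, 84.00 and 76.3 FPKM with glyphosate+2,4-D and 71.2, 77.7 and 80.95 with AMPA+2,4-D. Each step, from the first set to the second and from the second to exposed cells, was free of overlap. The difference was 1.31 to 1.62 (SE 0.23; limma, adjusted p = 1.51e-05 to 0.000166), with 1.86 to 2.17 against replicates 1 to 3 and 0.76 to 1.07 against replicates 4 to 6.

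The 2 unexposed sets were then compared with each other. In replicates 4 to 6, limma called 27 of 37 genes higher than in replicates 1 to 3, where 15.7% of all genes tested were called higher, and 3 lower, where 15.9% were. The median difference was 0.39 over the 37 genes and 0.00 over all genes. The largest were NDRG1 (1.09, SE 0.07), EPO (0.96, SE 0.13) and LDHA (0.94, SE 0.06), followed by P4HA1 (0.71), SLC2A2 (0.66) and HK2 (0.61). SLC2A3 (-0.35), HIF1A (-0.40) and PFKP (-0.63) were lower in the second set. SLC2A1, PFKFB3, EGLN1, EGLN3, KDM3A, MXI1 and ERO1A were not called between the sets. The labels give both sets as untreated replicates, so what separated them cannot be told apart from replicate number.

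Each set was therefore also used alone. Against replicates 4 to 6, 32 to 35 of 37 genes were called higher, with medians of 0.57 to 0.76, while 27, 27.3, 24.6, 24.7 and 25.9% of all genes were called higher, in the order used above. One gene was called lower in each exposure, SLC2A2 in 4 of them and PFKL with AMPA+2,4-D, beside 23.6, 23.3, 21.3, 21.3 and 23.4% of all genes. Against replicates 1 to 3, 33 to 35 were called higher with medians of 0.94 to 1.19, beside 29.4, 30, 27.6, 27.9 and 28.1% of all genes. Called lower were PFKP with glyphosate and AMPA+2,4-D and HIF1A with glyphosate+2,4-D, beside 27.2, 27.5, 25.9, 26.1 and 26.1% of all genes in the 5 exposures. In 32 genes all 15 exposed libraries lay above all of replicates 4 to 6 (19.3% of all genes), and in 33 above all of replicates 1 to 3 (21.9%). PFKFB3 hardly depended on the set, at 1.28 to 1.71 against the first and 1.18 to 1.61 against the second, and neither did EGLN1, at 0.53 to 0.78 and 0.51 to 0.76.

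Exposures were compared with each other to see what adding 2,4-D did. AMPA+2,4-D differed from AMPA alone in 6 of 37 genes, all lower, where 2.71% of all genes were called and 2.01% lower. PFKFB3 was lower by 0.41 (SE 0.08, adjusted p = 0.0153 in limma), with 12.7, 14.0 and 13.2 FPKM after AMPA and 9.66, 9.99 and 9.53 after the mixture. ANGPTL4 (-0.52, adjusted p = 0.0315), PFKL (-0.31, adjusted p = 0.0305) and ADM (-0.31, adjusted p = 0.0395) were lower in limma too. PKM (-0.29, adjusted p = 0.0470) and SLC2A1 (-0.20, adjusted p = 0.0446) were close to the threshold in limma. In all 6 the 3 mixture libraries lay below the 3 AMPA libraries, as in 27 of the 37 genes and 13.4% of all genes. These calls were fragile: leaving out AMPA replicate 2 or 3, or AMPA+2,4-D replicate 1 or 3, gave 0 calls among the 37 genes, and leaving out AMPA replicate 1 or glyphosate replicate 1 gave 1 and 3. A fit of these 2 groups alone gave 0 calls and TPM values gave 1.

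**Figure D4:**
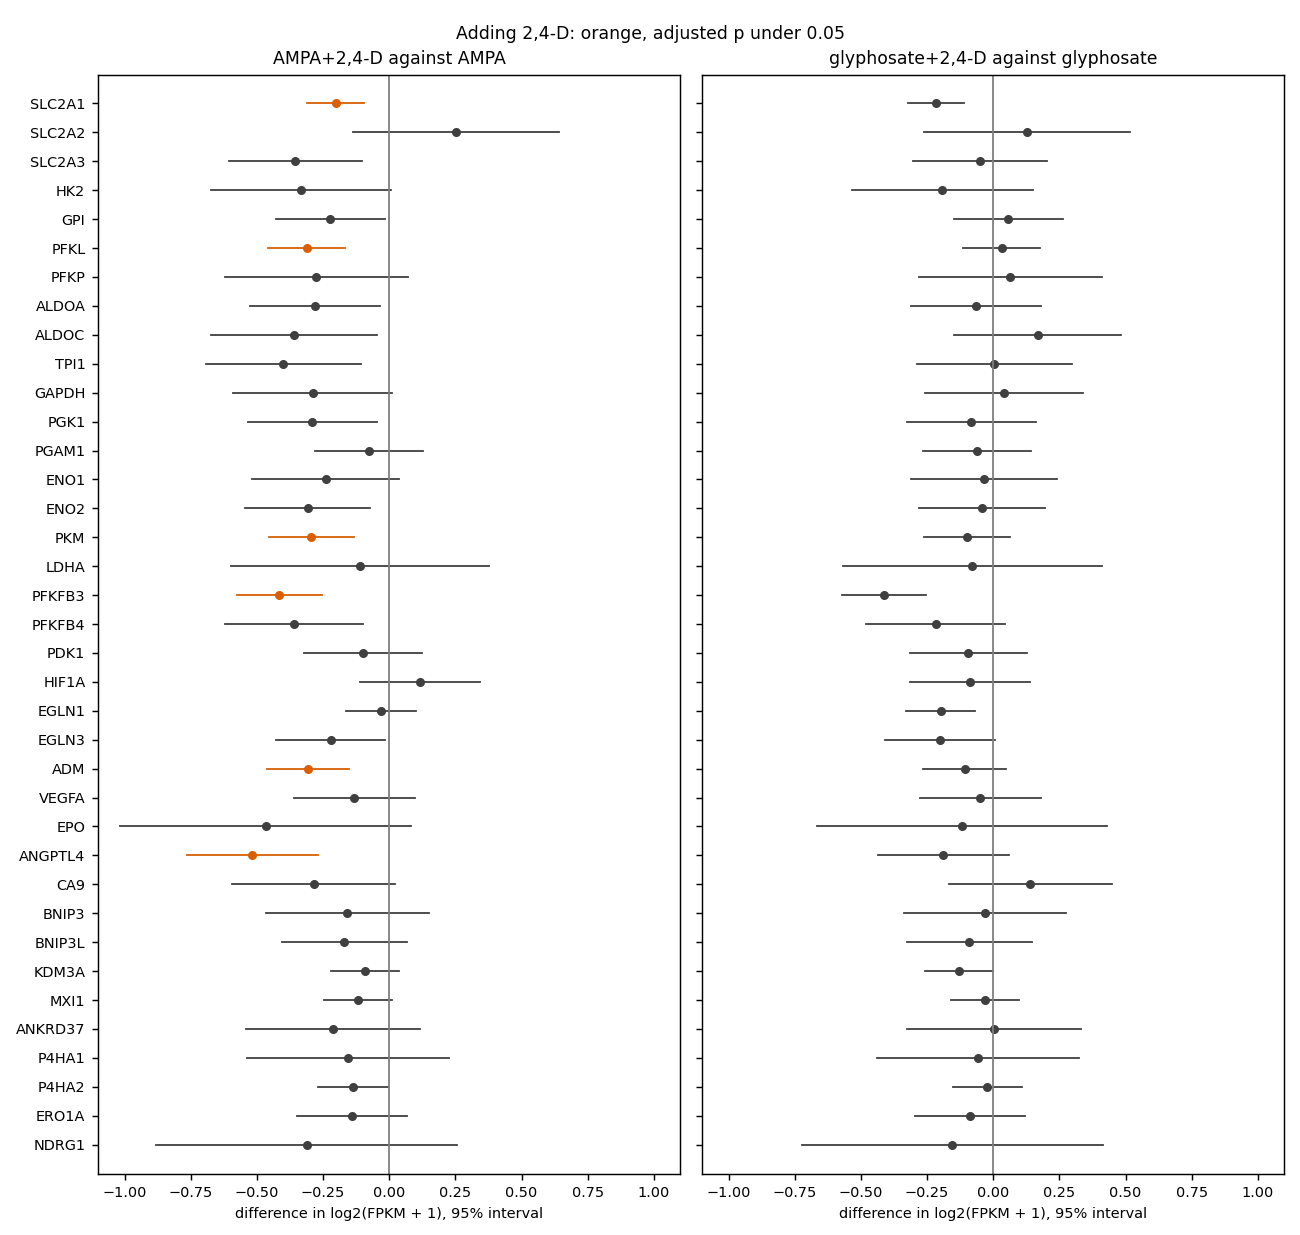
Difference in log2(FPKM + 1) with its 95% interval from limma for the 37 genes, for AMPA+2,4-D against AMPA (left) and glyphosate+2,4-D against glyphosate (right), with an adjusted p under 0.05 in orange. Most points on the left lie below 0 and 6 are orange, while points on the right have a median of -0.07 with PFKFB3 lowest at -0.41.

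Glyphosate+2,4-D against glyphosate gave 0 calls among the 37 genes and 0% of all genes in limma, and 0 with voom on the recovered reads. In 8 of the 37 genes the mixture libraries lay below all glyphosate libraries (10.6% of all genes), and in 0 above. At an unadjusted p under 0.05 it gave 4 genes, all lower, beside 7.95% of all genes: PFKFB3 (-0.41), SLC2A1 (-0.22), EGLN1 (-0.20) and KDM3A (-0.13). PFKFB3 fell from 13.4, 11.9 and 14.3 FPKM with glyphosate to 10.3, 8.87 and 9.81 with the mixture without overlap, but its adjusted p was 0.117 in limma (95% interval -0.57 to -0.25).

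The remaining comparisons between exposures also gave 0 calls in limma and with voom. At an unadjusted p under 0.05 AMPA against glyphosate had 0 of 37 genes (3.06% of all), glyphosate+2,4-D against 2,4-D had PFKL (0.15; 4.31% of all), and AMPA+2,4-D against 2,4-D had PFKL (-0.19), ADM (-0.18) and EGLN1 (0.15; 10.6% of all). The 37 differences between AMPA and glyphosate ran from -0.08 to 0.26. AMPA was given at a higher concentration than glyphosate, so this sets 2 different doses side by side.

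The 5 exposures lay at like heights above the same 6 unexposed libraries, and the interaction term restates this. This term, mixture plus unexposed minus both single exposures, was called lower in 31 of 37 genes for glyphosate and 2,4-D (17.9% of all genes called lower) and in 34 for AMPA and 2,4-D (19.8%), with 0 higher. Its median over the 37 was -0.85 and -1.01, against -0.01 for all genes in both. SLC2A3 had -2.02 and -2.32 (SE 0.16), and PFKFB3 had -1.73 in both (SE 0.10). SLC2A3 thus differed from unexposed cells by 2.21 with glyphosate, 1.97 with 2,4-D and 2.15 with both.

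Other genes of these pathways, not among the 40, were counted from further lists. Of 26 further HIF targets tested, 16 to 20 were called higher and 0 to 1 lower over the 5 exposures, beside 25 to 28% of all genes higher and 22.6 to 25.1% lower. By smallest p they were led by FUT11, a fucosyltransferase gene (0.70 to 0.94, SE 0.08), PLOD2, a collagen lysyl hydroxylase gene (0.69 to 0.82, SE 0.07), and INSIG2, a brake on sterol synthesis (0.58 to 0.86, SE 0.07). Not every target rose: DDIT4 differed by -0.20 to 0.02 and IGFBP1 by -0.21 to -0.04, both named after their values were seen. In the same list 15 genes were called higher and 3 lower in unexposed replicates 4 to 6 against 1 to 3, beside 15.7 and 15.9% of all genes.

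Of 6 genes of the machinery round HIF that were tested, 1 to 2 were called higher, near the same 25 to 28% of all genes. Called lower were 2 to 4 of these 6, beside 22.6 to 25.1% of all genes, in a list too small to compare shares. VHL, which targets HIF for destruction, was called lower in all 5 exposures (-0.58 to -0.40, SE 0.05), as was the coactivator gene CREBBP (-0.34 to -0.20, SE 0.05). EPAS1, which encodes another HIF alpha subunit, was called higher in all 5 (0.25 to 0.46, SE 0.04). Of 8 glycolytic isozymes outside the 40 that were tested, 0 to 3 were called higher and 1 to 4 lower, a small list in which these shares lie round those of all genes. PKLR, the liver pyruvate kinase, was called lower in all 5 exposures (-0.69 to -0.35, SE 0.10), while PKM was higher in all 5. ENO3, the muscle enolase, was called higher in 4 (0.04 to 0.47), and PFKFB2 was called lower in 2 (-0.16 to -0.11). HKDC1, another hexokinase gene, named after its values were seen, differed by -0.47 to -0.34 (SE 0.19) and was called lower in 1. It measured 87.3 to 94.5 FPKM in unexposed replicates 1 to 3, 46.2 to 49.6 in replicates 4 to 6 and 46.6 to 53.4 after exposure.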

How the data were processed

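RNA of 21 libraries was sequenced by the study. Per the submitters' processing notes, reads were aligned to GRCh38 with HISAT2 2.0.5 and counted with featureCounts 1.5.0-p3. The authors deposited FPKM values in 6 tables, a table for each group, and the labels' protocols state neither the strand of the SMARTer libraries nor how FPKM were scaled. FPKM times gene length gave whole reads to within 0.1 of a read, hence the 15.2 to 24.35 M reads per library behind the intervals. The total that scaled FPKM was not this read sum. It was 20.6 M against 19.04 M reads in unexposed replicate 1, and 16.04 M against 17.02 M in AMPA replicate 3. Median-of-ratios factors of the deposited FPKM were 0.994 to 1.004 in the 21 libraries.

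The 37 genes were tested within a fit of all 13405 genes present in all 6 tables with at least 1 FPKM in at least 3 libraries: limma 3.58.1 in R 4.3.3 (with data.table, version 1.17.8) on log2(FPKM + 1), group means over 21 libraries, moderated statistics with a mean-variance trend, and Benjamini-Hochberg adjustment within each comparison. The call threshold was an adjusted p of 0.05. Unexposed replicates 4 to 6 were compared with 1 to 3 in a fit with 7 groups. The procedure was tested on simulated counts with no difference between the unexposed sets, so that test does not cover calls under such a difference.

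The 40 genes and the other lists were chosen with earlier results of these data known. Values in every library are given, per role, for the tested gene with the largest and with the smallest mean difference over the 5 exposures, for 3 enzymes at each end, and for SLC2A1, HK2, PFKFB3, GAPDH, LDHA, PDK1, HIF1A, EGLN3, VEGFA, CA9, NDRG1 and PGK1. Between exposures up to 6 called genes are named, and up to 3 per other list by smallest p, of which 1 is not reported here.

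Alternatives were TPM, scaling by median of ratios, a pseudocount of 0.1, voom on recovered reads, dropping the filter, fitting only the groups compared, a block for replicate number, and removal of single libraries or of either unexposed set.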

Additional observations from a re-analysis of the deposited data

Results flagged for a closer look

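In unexposed cells MXI1, the MYC antagonist, had 1 library apart from the other 5. Replicate 5 measured 4.56 FPKM and the nearest other library 5.34, a gap of 0.662 of the group's range, where 0.625 is the limit for 6 samples. Chance flags about 1 in 20 such groups, and 37 genes were looked at. All exposed libraries lay above the 6 unexposed ones with or without replicate 5.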

How the results depend on the processing

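Of the counts of called genes recomputed under other settings, 379 stayed within 1.5 times the reported count and 11 moved. All 11 concern AMPA+2,4-D against AMPA, with 6 calls as reported. That count was 2 with no filter, 1 with TPM, 1 with TPM on the same genes, 0 in a fit of the 2 groups alone, and 0 to 6 with single libraries left out. The numbers do not pair the libraries: same-number correlations were -0.119 to 0.0884, and the same number correlated best in 15 of 45 comparisons. A replicate block gave 21 calls there, and its fit sets unexposed replicates 4 to 6 apart.

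Against unexposed cells the 37 genes gave 30 to 34 calls higher with voom, scaling by median of ratios, a pseudocount of 0.1 or no filter, 30 to 33 in fits of the compared groups alone, and 33 to 35 with the replicate block. The deposited values already had median-of-ratios factors of 0.994 to 1.004, so that scaling could hardly move a count. The voom fit took its library sizes from a median of ratios too, so neither tests another scaling. TPM moved the median of all genes by -0.14 to -0.07, and 30 to 32 were called higher and 0 to 1 lower. Leaving out single libraries gave 30 to 34.

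Some directions turned with the unexposed set. Without unexposed replicates 4 to 6, and also with the replicate block, SLC2A2 was higher with 2,4-D (0.31), AMPA (0.29) and glyphosate+2,4-D (0.32), and HIF1A was lower with glyphosate+2,4-D (-0.18). Without replicates 4 to 6 PFKP was lower with glyphosate (-0.18) and with AMPA+2,4-D (-0.37, also with the block), and without replicates 1 to 3 it was higher with AMPA+2,4-D (0.25). The cause was not tested. EPO, with 26 to 146 reads per library, had an SE of 0.23.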

Other observations

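Neighbouring routes of glucose carbon held genes called in both directions. These lists are short, and of all genes tested 25 to 28% were called higher and 22.6 to 25.1% lower. Of 7 genes of the pentose phosphate pathway, which makes NADPH and ribose from glucose 6-phosphate, 2 were called higher and 3 lower in limma in each exposure. TKT (-0.29 to -0.11, SE 0.03) and PGLS (-0.38 to -0.20, SE 0.05) were among those lower. Of 5 gluconeogenic genes tested, 1 was called higher and 2 lower in each exposure. PCK1, the cytosolic enzyme that starts glucose synthesis from oxaloacetate, was higher by 0.37 to 0.76 (SE 0.12), and its mitochondrial counterpart PCK2 (-1.06 to -0.89, SE 0.05) and G6PC3 (-0.65 to -0.49, SE 0.07) were lower.

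Of 10 genes that admit pyruvate to mitochondria or control its oxidation, 2 to 3 were called higher and 2 to 5 lower over the 5 exposures. PDK2, a kinase related to PDK1, was lower (-0.59 to -0.42, SE 0.06), as was MPC1, a subunit of the mitochondrial pyruvate carrier (-0.47 to -0.35, SE 0.06), and PDHX, a subunit of the pyruvate dehydrogenase complex, was higher (0.21 to 0.38, SE 0.06). Between 22.6 and 25.1% of all genes tested were called lower in these comparisons, and 25 to 28% higher. Between the unexposed sets, 3 of the 7 pentose phosphate genes were called lower in replicates 4 to 6, beside 15.9% of all genes tested.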
